A study of Mus musculus with 12 samples.

Results

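Tmem18, Adi1, Dtd2, Heatr5a, Ap4s1 and Arhgap5 are 6 genes of mouse chromosome 12, the chromosome of the aryl hydrocarbon receptor gene Ahr. They were chosen by their signal on these arrays, which differed between hepatocytes of human AHR (hAHR) and C57BL6/J mice, and all 14 probe sets annotated to 1 of these symbols alone were taken. They are 6 of 18193 genes measured on the arrays. Since the genotype difference chose them, it is described below without a test, and the rule states no size limit. The response to TCDD was not used in the choice and was tested.

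The samples were 12 Affymetrix expression arrays in 4 groups of 3, each with RNA of primary mouse hepatocytes. The hAHR mice carry the allele Ahrtm3.1Bra, an Ahr gene with loxP sites that Cre can delete, on a background named B6.Cg. They also carry Alb-cre, a Cre transgene driven by the albumin promoter, which is active in hepatocytes, and Ttr-AHR, human AHR driven by the transthyretin promoter. C57BL6/J mice carry the mouse receptor and none of these alleles. Hepatocytes of both genotypes were kept for 48 h in a serum-free medium with dimethyl sulfoxide and dexamethasone, and then received 10 nM TCDD or DMSO vehicle for 6 h. The groups were hAHR with TCDD, hAHR with vehicle, C57BL6/J with TCDD and C57BL6/J with vehicle. The design text gives 1 mouse per array. The labels state neither the age nor the sex of the mice.

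AHR is a transcription factor that stays in the cytoplasm until a ligand such as the dioxin TCDD binds it. It then enters the nucleus, pairs with ARNT and activates genes such as those of the Cyp1 family. A gene targeted in embryonic stem cells of 1 mouse strain and crossed into another brings along neighbouring DNA of the donor strain, and the prefix B6.Cg names a C57BL/6 background that carries segments from other sources. Such a segment can hold donor variants that alter the RNA level of a nearby gene, or variants under an array probe that alter its binding. The parts of either in the differences below were not tested, and no probe sequence was used here.

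After every array was rescaled to the same trimmed mean, array medians lay between 16.5 and 23.5 intensity units. All 9 hepatocyte markers, Alb and Ttr among them, were measured and none lay below the array median on all arrays. Their summed signal was 66190 to 80930 in hAHR TCDD, 64580 to 84350 in hAHR vehicle, 67690 to 83970 in C57BL6/J TCDD and 64150 to 71450 in C57BL6/J vehicle arrays. All 6 Kupffer cell and macrophage markers averaged higher in hAHR arrays, with a median log2 difference of 1.02. Marco and Vsig4 did not overlap between the genotypes, which held in either direction for 0.423% of all genes. By limma 0 of the 6 were called, against 0.033% of all genes. An unadjusted p under 0.05 was found for 5 of the 6 and for 971 of all 18193 genes. The summed signals of the 6 markers overlapped, at 1803 to 4004 over the 6 hAHR arrays and 1830 to 4127 over the 6 C57BL6/J arrays. Cd68 made up most of that sum and differed by 0.04, whereas the other 5 differed by 0.87 to 1.5. Without Cd68, a sum taken after its values were seen, the range was 68.8 to 553.5 in hAHR and 47.1 to 107 in C57BL6/J arrays. Their part in the differences below was not tested. Both C57BL6/J arrays numbered 2 had high Xist (2952 under TCDD, 3085 under vehicle) and almost no Eif2s3y (0.42 and 4.7). On each of the other 10 arrays Xist was at most 29.3 and Eif2s3y at least 452.7, so both replicate 2 arrays had the pattern of female cells and the others that of male cells.

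The Ahr gene itself was checked first. Probe set 1422631_at read 225, 193 and 216 in hAHR TCDD arrays, 224, 193 and 236 in hAHR vehicle arrays, 243, 442 and 223 in C57BL6/J TCDD arrays and 261, 617 and 245 in C57BL6/J vehicle arrays. The 2 high values came from the C57BL6/J arrays numbered 2. Over genotypes, Ahr averaged 214 ± 17.8 in hAHR and 339 ± 158 in C57BL6/J arrays (SD, n = 6 each), a log2 difference of -0.52 with a limma adjusted p of 0.921. A dimmer set, 1450695_at, differed by -0.22. The sources do not say whether either set lies in the deleted part, so these values do not check the labels.

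All 6 genes averaged lower in both hAHR groups than in both C57BL6/J groups. The mean signal over the 6 hAHR arrays, as a ratio to that over the 6 C57BL6/J arrays, was 0.206 for Tmem18, 0.248 for Adi1, 0.307 for Dtd2, 0.577 for Heatr5a, 0.693 for Arhgap5 and 0.706 for Ap4s1. For 5 of them every hAHR array lay below every C57BL6/J array, and Ap4s1 was the exception. Over all genes, 0.236% were lower in hAHR arrays without overlap. Within 1 treatment, 5 of the 6 were lower without overlap under TCDD, as were 4.88% of all genes, and 6 of 6 under vehicle, as were 4.43%. As the choice of the genes rests on this contrast, these counts are not read further. Lower signal in RNA of cultured cells cannot tell fewer cells of a type from less RNA per cell.

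The DNA just around the start of each gene is shown for Tmem18 and Dtd2, which had large differences, and for Ap4s1 and Heatr5a, whose windows hold the core letters to which AHR and ARNT bind. RefSeq windows on GRCm38.p6 covered 250 bases before to 50 after the start, and 5 of the 6 genes had one. They run from chr12:30584193-30584492 on the plus strand for Tmem18, chr12:52006458-52006757 on the minus strand for Dtd2, chr12:51690716-51691015 on the plus strand for Ap4s1 and chr12:51971272-51971571 on the minus strand for Heatr5a. Capitals mark GCGTG or its reverse complement CACGC.
Tmem18: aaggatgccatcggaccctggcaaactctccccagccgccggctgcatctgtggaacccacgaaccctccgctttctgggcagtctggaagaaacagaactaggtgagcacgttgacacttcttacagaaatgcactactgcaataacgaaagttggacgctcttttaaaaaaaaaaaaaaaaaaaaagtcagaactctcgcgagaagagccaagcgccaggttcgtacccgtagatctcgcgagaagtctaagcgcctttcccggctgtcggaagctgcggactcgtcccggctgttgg
Dtd2: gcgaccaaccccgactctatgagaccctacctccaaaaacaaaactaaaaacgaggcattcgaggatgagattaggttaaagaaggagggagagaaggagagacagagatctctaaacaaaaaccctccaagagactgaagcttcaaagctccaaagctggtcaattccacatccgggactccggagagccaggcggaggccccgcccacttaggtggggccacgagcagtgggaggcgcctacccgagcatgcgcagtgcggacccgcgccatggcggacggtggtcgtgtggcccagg
Ap4s1: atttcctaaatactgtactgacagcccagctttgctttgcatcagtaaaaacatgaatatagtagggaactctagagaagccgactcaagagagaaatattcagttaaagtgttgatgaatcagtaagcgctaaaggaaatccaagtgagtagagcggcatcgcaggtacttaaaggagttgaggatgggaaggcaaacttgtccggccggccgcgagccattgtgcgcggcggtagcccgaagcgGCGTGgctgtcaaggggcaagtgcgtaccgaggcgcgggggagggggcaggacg
Heatr5a: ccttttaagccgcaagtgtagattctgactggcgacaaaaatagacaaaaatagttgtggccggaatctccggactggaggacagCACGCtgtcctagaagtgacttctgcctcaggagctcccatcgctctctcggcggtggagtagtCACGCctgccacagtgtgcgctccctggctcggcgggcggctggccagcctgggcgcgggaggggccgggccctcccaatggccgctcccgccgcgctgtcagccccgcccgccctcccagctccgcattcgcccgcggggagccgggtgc
The Ap4s1 window holds 1 match, the Heatr5a window 2, and the Tmem18, Dtd2 and Arhgap5 windows none. A match occurred in 32.4% of all 32851 windows of this length, and 2 or more in 11.1%. Neither the genes with matches nor the others passed the test for a TCDD response below.

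Tmem18 encodes a membrane protein of the nuclear envelope that human studies link to body weight. Its only probe set, 1454836_at, read 41.0, 103 and 118 in hAHR TCDD arrays, 91.6, 16.5 and 57.9 in hAHR vehicle arrays, 336, 362 and 334 in C57BL6/J TCDD arrays and 368, 349 and 328 in C57BL6/J vehicle arrays. The hAHR arrays scattered widely at a low level, 71.3 ± 39.3, while the C57BL6/J arrays lay close together at 346 ± 16.4 (SD, n = 6 each). The gap between the highest hAHR array, at 118, and the lowest C57BL6/J array, at 328, was wider than the range within either genotype. On the log2 scale used for the fit, with 16 added to each signal, the difference was -2.20 (SE 0.27), at -1.89 under TCDD and -2.51 under vehicle.

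Adi1 encodes acireductone dioxygenase, an enzyme of the methionine salvage pathway, which recovers methionine from the by-product of polyamine synthesis. Its 3 probe sets did not move together. The set that stands for the gene, 1438759_x_at, read 286, 220 and 239 in hAHR TCDD arrays, 246, 344 and 327 in hAHR vehicle arrays, 1098, 1020 and 1459 in C57BL6/J TCDD arrays and 1137, 1044 and 934.6 in C57BL6/J vehicle arrays. The genotypes were far apart, with a log2 difference of -1.95 (SE 0.12).
Set 1438758_at read 43.7, 33.3 and 51.7 in hAHR TCDD arrays, 25.5, 85.1 and 62.5 in hAHR vehicle arrays, 945, 864.5 and 1186 in C57BL6/J TCDD arrays and 968, 882 and 868 in C57BL6/J vehicle arrays. It averaged 50.3 ± 21.5 in hAHR and 952 ± 122 in C57BL6/J arrays (SD, n = 6 each), a ratio of 0.0528 and a log2 difference of -3.92 (SE 0.18), the widest of the 14 sets.
The third set, 1449076_x_at, went the other way. It read 882, 816 and 444 in hAHR TCDD arrays, 898, 1200 and 603 in hAHR vehicle arrays, 672, 338.5 and 478 in C57BL6/J TCDD arrays and 558, 432 and 493.5 in C57BL6/J vehicle arrays. The hAHR arrays were the higher under vehicle without overlap, and the genotypes overlapped under TCDD, for a log2 difference of 0.65 (SE 0.21). In Affymetrix names, x_at marks sets with probes that can also match other sequences, which holds for 2 of the 3 Adi1 sets.

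**Figure D1:**
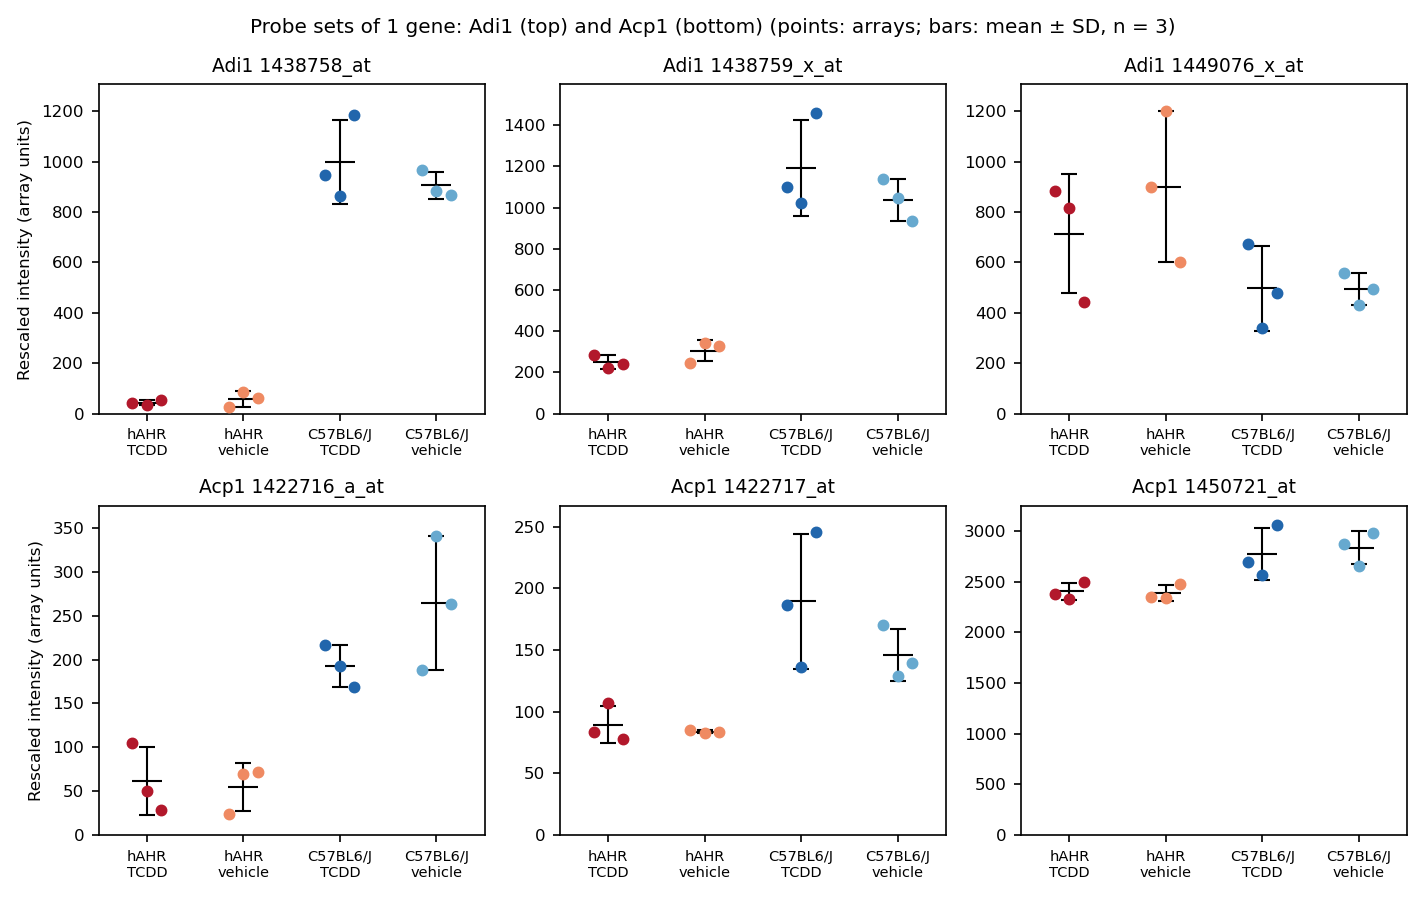
Rescaled intensity of the 3 Adi1 probe sets (top) and of 3 sets of Acp1, the measured gene next to Tmem18 (bottom). The Acp1 sets are those that did not overlap between the genotypes. Points are arrays, 3 per group, and bars give mean ± SD. Adi1 set 1438758_at averaged 50.3 in hAHR and 952 in C57BL6/J arrays, while 1449076_x_at averaged 807 in hAHR and 495 in C57BL6/J arrays.

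Dtd2 encodes a member of the D-aminoacyl-tRNA deacylases, which clear wrongly charged tRNAs. Its gene value, set 1453522_at, read 27.4, 24.7 and 34.9 in hAHR TCDD arrays, 10.5, 39.3 and 45.7 in hAHR vehicle arrays, 92.2, 96.6 and 114 in C57BL6/J TCDD arrays and 103, 109.8 and 78.3 in C57BL6/J vehicle arrays. The highest hAHR array stood at 45.7 and the lowest C57BL6/J array at 78.3, with means of 30.4 ± 12.4 in hAHR and 99.0 ± 12.9 in C57BL6/J arrays (SD, n = 6 each). The log2 difference was -1.35 (SE 0.20).
Its other sets, 1430337_at and 1431040_at, lay below the array median on 12 and 11 arrays and differed by -0.04 and -0.10. A mean over the 3 sets gives -0.50 in place of -1.35.

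Heatr5a encodes a protein of HEAT repeats related to HEATR5B, a partner of the AP-1 adaptor in transport from the Golgi and endosomes. Set 1435241_at read 106, 144 and 110.1 in hAHR TCDD arrays, 97.7, 97.4 and 155 in hAHR vehicle arrays, 251, 185 and 162 in C57BL6/J TCDD arrays and 232, 206 and 195 in C57BL6/J vehicle arrays. The genotypes lay side by side with little space between them, at 155 for the highest hAHR and 162 for the lowest C57BL6/J array. Means were 118 ± 24.8 in hAHR and 205 ± 32.2 in C57BL6/J arrays (SD, n = 6 each), a log2 difference of -0.73 (SE 0.15).
Its second set, 1440543_at, ran from 0.6 to 5.2 over all arrays, below the array median on each, and a mean over both sets gives -0.40.

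Arhgap5 encodes p190-B RhoGAP, which switches the small GTPase RhoA off. Set 1450897_at read 436, 395 and 344 in hAHR TCDD arrays, 463.5, 440.5 and 405 in hAHR vehicle arrays, 552, 584 and 517 in C57BL6/J TCDD arrays and 566, 691 and 673 in C57BL6/J vehicle arrays. No hAHR array reached the lowest C57BL6/J array, and means were 414 ± 42.3 in hAHR and 597 ± 69.7 in C57BL6/J arrays (SD, n = 6 each), a log2 difference of -0.51 (SE 0.09).
A second Arhgap5 set, 1423194_at, was also apart, at 119 ± 11.3 in hAHR and 151.5 ± 14.6 in C57BL6/J arrays (SD, n = 6 each), for -0.31. The other 2 sets overlapped between the genotypes, at -0.10 for 1450896_at and -0.35 for 1457410_at. A mean over the 4 sets gives -0.32.

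Ap4s1 encodes the small sigma subunit of AP-4, an adaptor complex that sorts cargo such as ATG9A out of the Golgi network. Its only set, 1451665_a_at, read 189, 124 and 169.5 in hAHR TCDD arrays, 184, 136 and 178 in hAHR vehicle arrays, 219, 260.1 and 168 in C57BL6/J TCDD arrays and 194, 273.8 and 273.9 in C57BL6/J vehicle arrays. The genotypes were apart under vehicle and overlapped under TCDD, where the C57BL6/J array at 168 lay among the hAHR arrays. Means were 163.5 ± 27.0 in hAHR and 231.5 ± 44.6 in C57BL6/J arrays (SD, n = 6 each), a log2 difference of -0.46 (SE 0.15).

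**Figure D2:**
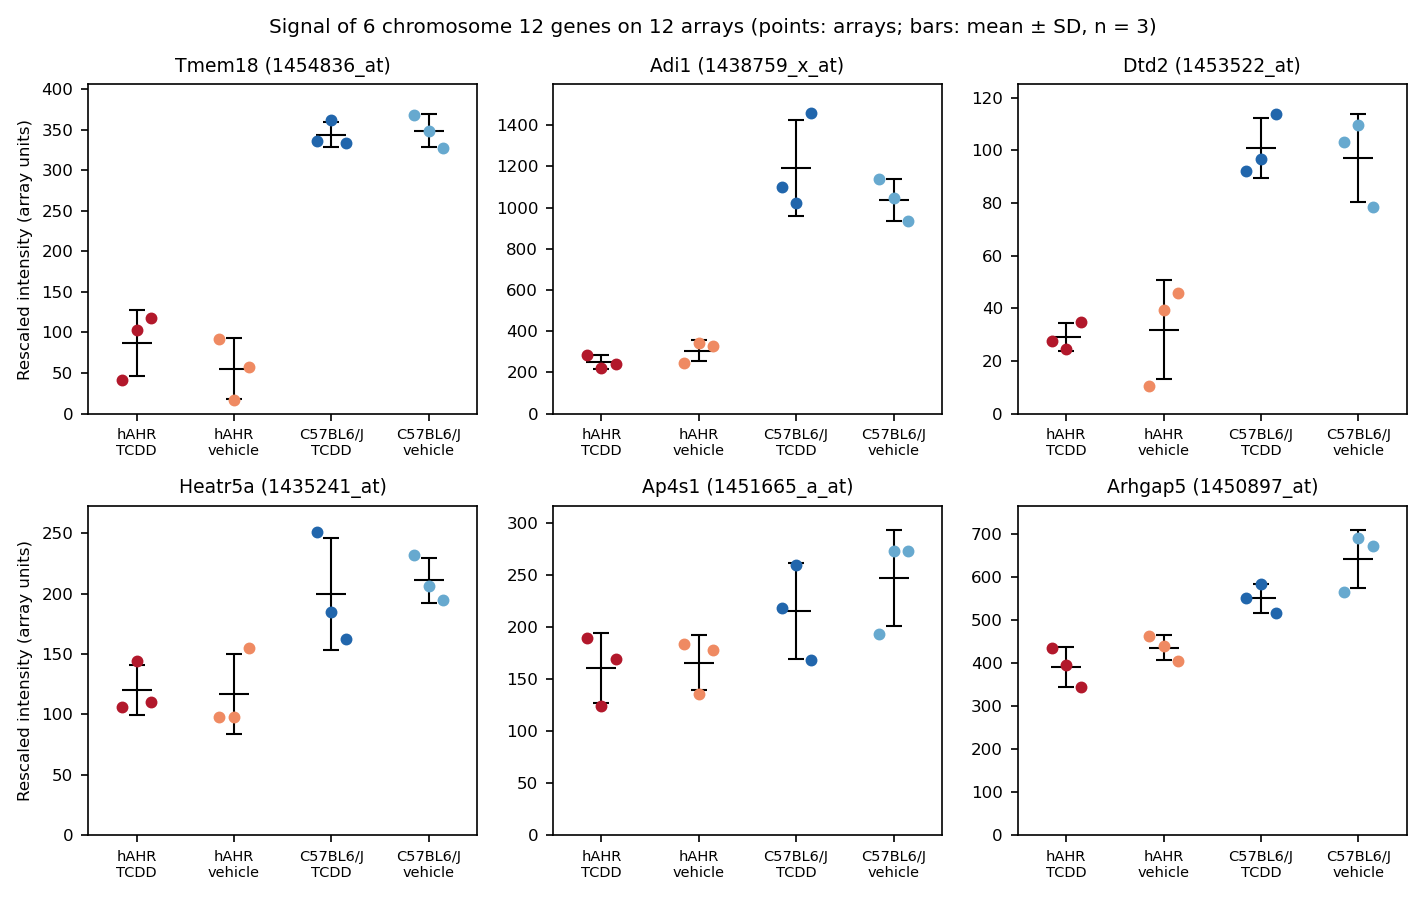
Rescaled intensity of the 6 genes, each by its gene value, on every array, with 3 arrays per group as points and bars for mean ± SD. Only Ap4s1 overlaps between the 6 hAHR and the 6 C57BL6/J arrays.

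In each gene the 4 groups ran in the same order by genotype. Both C57BL6/J groups stood above both hAHR groups, and TCDD and vehicle arrays of 1 genotype overlapped in all 6 genes. The lower C57BL6/J group and the higher hAHR group did not overlap, except for Ap4s1. Of the 14 probe sets, 13 averaged lower in hAHR arrays and 7 were apart, as against 0.213% of all probe sets lower in hAHR arrays without overlap. The 7 that overlapped include 3 that lay below the array median on 11 or 12 arrays. The C57BL6/J arrays numbered 2 lay within the range of the other 4 C57BL6/J arrays for 5 of the 6 genes. The exception was Arhgap5, with 691 under vehicle against a highest value of 673 in those 4 arrays.

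**Figure D3:**
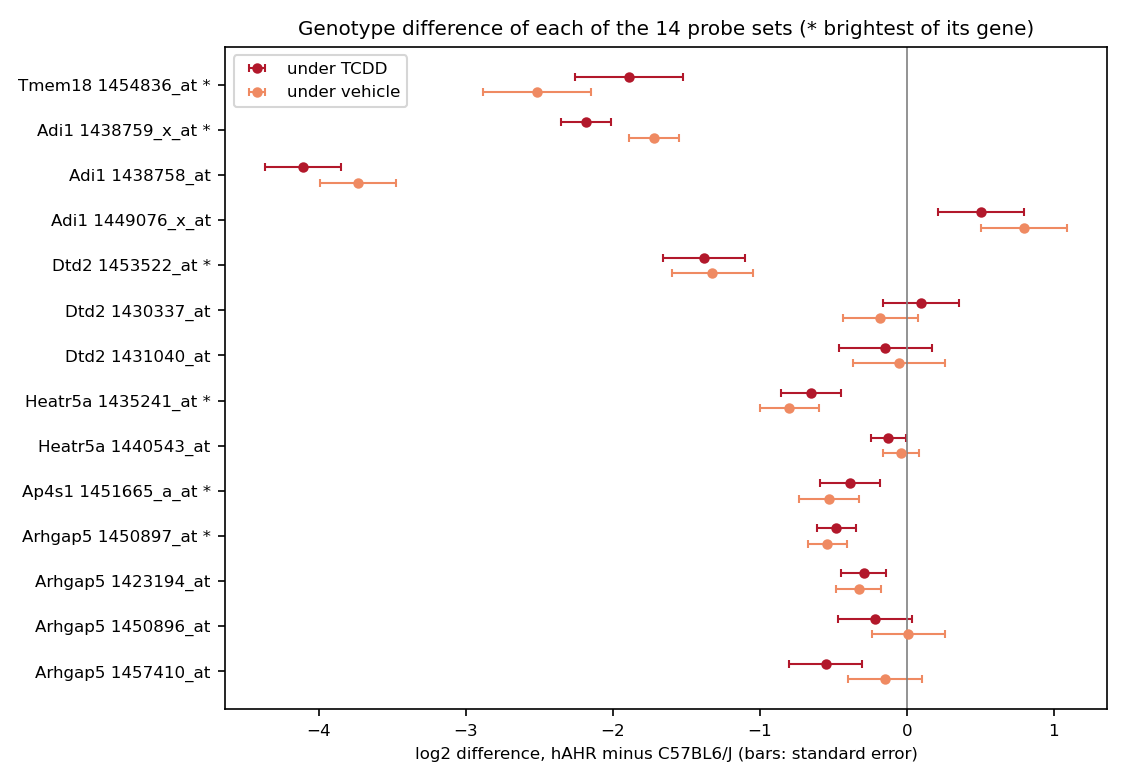
Log2 difference between hAHR and C57BL6/J arrays for each of the 14 probe sets, under TCDD and under vehicle, with the standard error as bars and an asterisk at the gene value. Adi1 set 1438758_at reaches -4.11 under TCDD and -3.74 under vehicle, and Adi1 1449076_x_at lies above 0 under both.

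The genes fall in 2 groups, 1 on either side of Ahr. In the RefSeq order of GRCm38.p6, with 622 measured genes placed on chromosome 12, Adi1 is 39 and Tmem18 32 measured genes before Ahr. Ap4s1, Heatr5a, Dtd2 and Arhgap5 follow Ahr by 29, 31, 32 and 35 measured genes. Heatr5a and Dtd2 are direct neighbours among measured genes, both on the minus strand.

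The stretch from Adi1 to Arhgap5 held 69 other measured genes, Ahr included. Their median log2 genotype difference was 0.03, 29 of the 69 averaged lower in hAHR arrays, and none was called by limma on its gene value at an adjusted p of 0.05, which 0.033% of all genes passed. Of the 69, 8 had an unadjusted p under 0.05, as did 26 of the 547 genes of the rest of the chromosome. Only Acp1 was apart, 1.45% of the 69. Among those 547 genes, 2 (0.366%) were apart, Pole2 and Gm15523, both higher in hAHR arrays. Over all genes, 0.423% were apart in either direction. Acp1 and G2e3 were the innermost genes with an apart set on either side of Ahr. The 55 genes between them, which include Ahr, held 117 probe sets. That none of these was apart follows from how the borders were drawn and is not a finding. Of the 55 genes, 5 had an unadjusted p under 0.05 by limma, as did 971 of all 18193.

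Acp1, a low-molecular-weight phosphotyrosine phosphatase and the measured gene next to Tmem18, had 3 sets that were lower in hAHR arrays without overlap. Only sets without overlap were listed, so any other Acp1 sets are not described here. Set 1422716_a_at averaged 58.1 ± 30.2 in hAHR and 229 ± 64.0 in C57BL6/J arrays (SD, n = 6 each), a log2 difference of -1.79. With every probe set tested, this was the 1 set called among the 151 of the 69 genes (limma adjusted p = 0.0279), where 0.0222% of all sets were called. Set 1422717_at averaged 86.7 ± 10.2 in hAHR and 168 ± 44.0 in C57BL6/J arrays, for -0.81. The gene value, 1450721_at, averaged 2396 ± 74.9 in hAHR and 2803 ± 193 in C57BL6/J arrays, for -0.22 with a limma adjusted p of 0.815. So these 3 sets of Acp1, like those of Adi1, differed among themselves in the size of the genotype difference.
Before Ap4s1, single dimmer sets of G2e3, a ubiquitin ligase, and of Scfd1, a protein of transport between the endoplasmic reticulum and the Golgi, were also lower. G2e3 set 1434700_at averaged 16.9 ± 6.54 in hAHR and 41.8 ± 21.7 in C57BL6/J arrays (SD, n = 6 each), and Scfd1 set 1444845_at averaged 19.5 ± 5.64 in hAHR and 54.7 ± 7.28 in C57BL6/J arrays. Over the stretch without the 6 genes, 5 of 151 probe sets were apart and lower, against 1 of 1119 on the rest of the chromosome. Of all probe sets, 0.213% were apart and lower. Of the 5 sets, 3 were of Acp1, so they are not 5 separate genes. The borders of the stretch are 2 of the 6 genes, which this same contrast chose, and the counts were not tested. Sets apart and higher numbered 0 in the stretch and 2 on the rest of the chromosome.

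The other direct neighbours of the 6 genes had differences on both sides of 0. Rnaseh1 and Trappc12 beside Adi1 showed 0.01 and 0.39, Strn3 before Ap4s1 0.21, Gm5785 between Ap4s1 and Heatr5a 0.50, Gpr33 after Dtd2 0.03, and Nubpl and Akap6 beside Arhgap5 -0.29 and -0.06. 2310016D03Rik before Tmem18 showed -0.25. This gene, Gm5785, Gpr33 and Akap6 were dim, with genotype means from 4.25 to 17.55 where array medians were 16.5 to 23.5. Each of the neighbours named in this paragraph so far overlapped between the genotypes, with limma adjusted p from 0.913 to 0.998. Tcl1b3, farther along the chromosome, differed by -1.52 with overlapping arrays (791 ± 676 in hAHR and 1539 ± 344 in C57BL6/J arrays, SD, n = 6 each, limma adjusted p = 0.815).

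**Figure D4:**
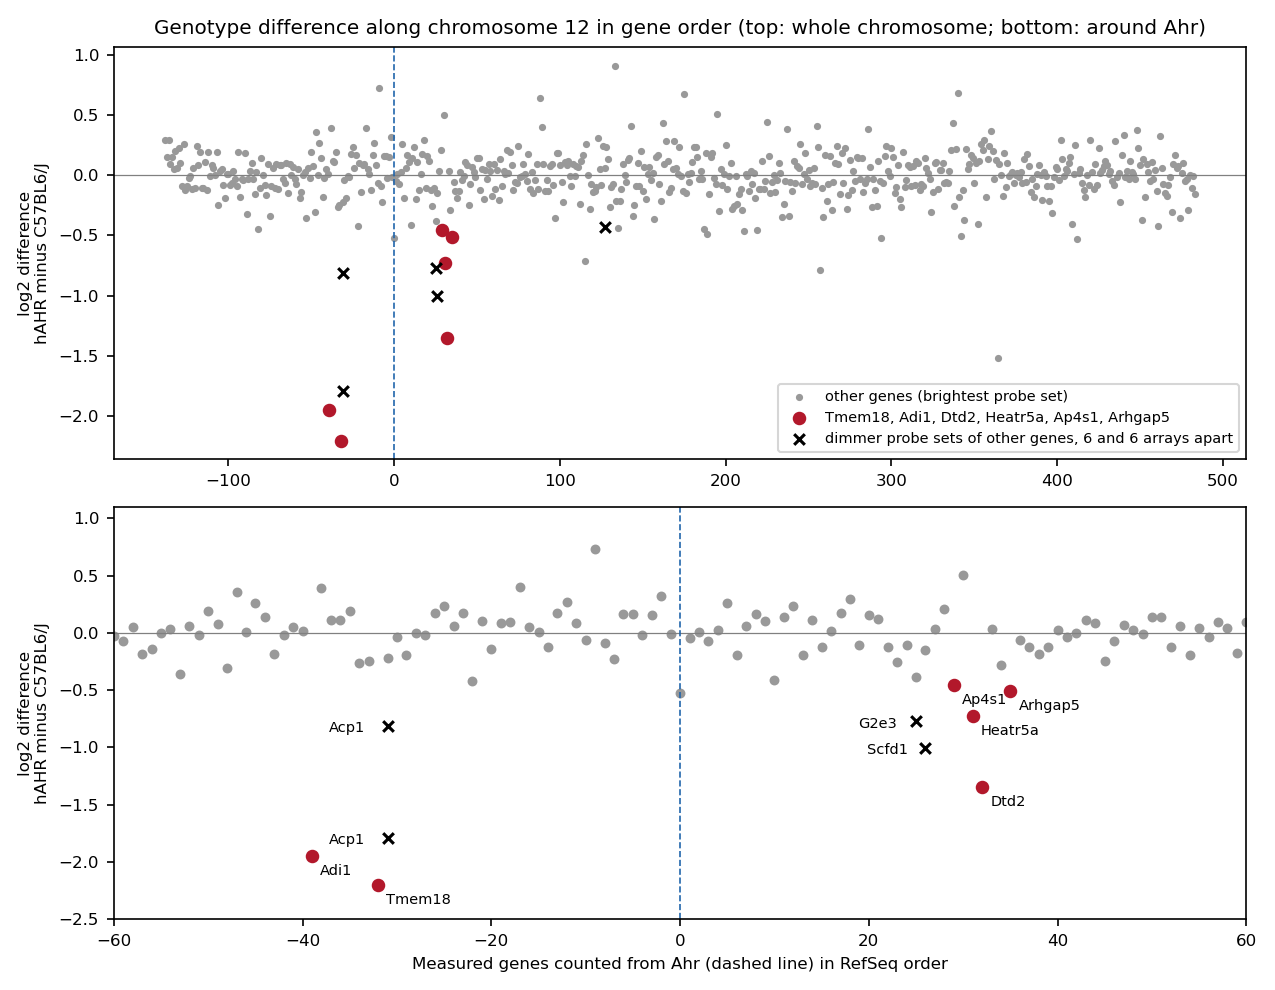
Log2 difference between hAHR and C57BL6/J arrays of each measured chromosome 12 gene against its rank from Ahr in RefSeq order, for the whole chromosome (top) and 60 genes to each side (bottom). Red points are the 6 genes, grey points all other genes by their brightest set, and crosses dimmer sets of other genes without overlap between genotypes.

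TCDD had no called effect on any of the 6 genes in either genotype. In limma's test 0 of 6 passed at an adjusted p of 0.05 in hAHR cells, where 0.022% of all genes did, and 0 of 6 in C57BL6/J cells, where 0.0055% did. None had an unadjusted p under 0.05 in either, where 527 of 18193 genes did in hAHR and 761 in C57BL6/J cells. No gene value separated TCDD from vehicle arrays, as 7.2% of all genes did in hAHR and 8.99% in C57BL6/J cells. In hAHR cells the adjusted p was 1 for all 6. In C57BL6/J cells it ran from 0.966 to 0.998. The median change of the 6 was -0.03 in hAHR and -0.05 in C57BL6/J cells. Over all genes it was -0.01 in hAHR and 0.03 in C57BL6/J cells.

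Tmem18 averaged 87.3 ± 40.9 with TCDD and 55.3 ± 37.6 with vehicle in hAHR cells (SD, n = 3 each), a log2 change of 0.60 with a 95% interval from -0.21 to 1.42. In C57BL6/J cells it averaged 344 ± 15.7 with TCDD and 348 ± 20.3 with vehicle (SD, n = 3 each), a change of -0.02 (-0.83 to 0.80). The interval in hAHR cells leaves room for changes of more than 1 log2 unit upward. The change there rests on single arrays, at 0.12 without hAHR vehicle replicate 2 and 0.99 without hAHR TCDD replicate 1.
Adi1 averaged 248 ± 34.1 with TCDD and 306 ± 52.1 with vehicle in hAHR cells (SD, n = 3 each), a change of -0.28 (-0.64 to 0.09). In C57BL6/J cells it averaged 1192 ± 234 with TCDD and 1038 ± 101 with vehicle, a change of 0.18 (-0.18 to 0.55). The 2 changes had opposite signs, but each interval includes 0.
Arhgap5 averaged 392 with TCDD and 436 with vehicle in hAHR cells, a change of -0.15 (-0.43 to 0.13). In C57BL6/J cells it averaged 551 with TCDD and 643 with vehicle, a change of -0.21 (-0.49 to 0.07). Arhgap5 was lower with TCDD in 3 of 3 same-numbered pairs of hAHR arrays, as were 14% of all genes, and in 3 of 3 same-numbered C57BL6/J arrays, as were 11.9%. Both intervals include 0, and with the replicate number as a block limma's adjusted p was 1 in hAHR and 0.654 in C57BL6/J cells. The change of Dtd2 was -0.00 (-0.62 to 0.62) in hAHR and 0.05 (-0.57 to 0.68) in C57BL6/J cells. That of Heatr5a was 0.05 (-0.40 to 0.50) in hAHR and -0.09 (-0.54 to 0.36) in C57BL6/J cells. That of Ap4s1 was -0.05 (-0.50 to 0.40) in hAHR and -0.19 (-0.64 to 0.26) in C57BL6/J cells. All 3 C57BL6/J TCDD arrays were deposited on another scale than the other 9, so in that genotype treatment and deposited scale cannot be told apart beyond the rescaling.

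The test of the difference between the 2 TCDD effects also called 0 of 6, with 0.0% called among all genes. None of the 6 had an unadjusted p under 0.05, where 573 of 18193 genes did. The adjusted p was 0.999 for each. The difference, hAHR minus C57BL6/J, was 0.62 (-0.53 to 1.77) for Tmem18, -0.46 (-0.98 to 0.06) for Adi1, -0.06 (-0.94 to 0.82) for Dtd2, 0.15 (-0.49 to 0.78) for Heatr5a, 0.14 (-0.50 to 0.78) for Ap4s1 and 0.06 (-0.34 to 0.46) for Arhgap5. With 3 arrays a group, these intervals span differences of up to 1.77 log2 units for Tmem18 and 0.46 for Arhgap5. With 1 array left out, the Tmem18 difference ran from 0.14, without hAHR vehicle replicate 2, to 1.00, without hAHR TCDD replicate 1. Of the 14 probe sets, limma called none for TCDD in hAHR cells (0.00666% of all sets called), for TCDD in C57BL6/J cells (0.00444%) or for the difference (0.0%), and none had an unadjusted p under 0.05. The dim Dtd2 set 1430337_at had all C57BL6/J TCDD arrays below all vehicle arrays (log2 change -0.28, limma adjusted p = 0.968), where 2.6% of all sets were lower without overlap.

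**Figure D5:**
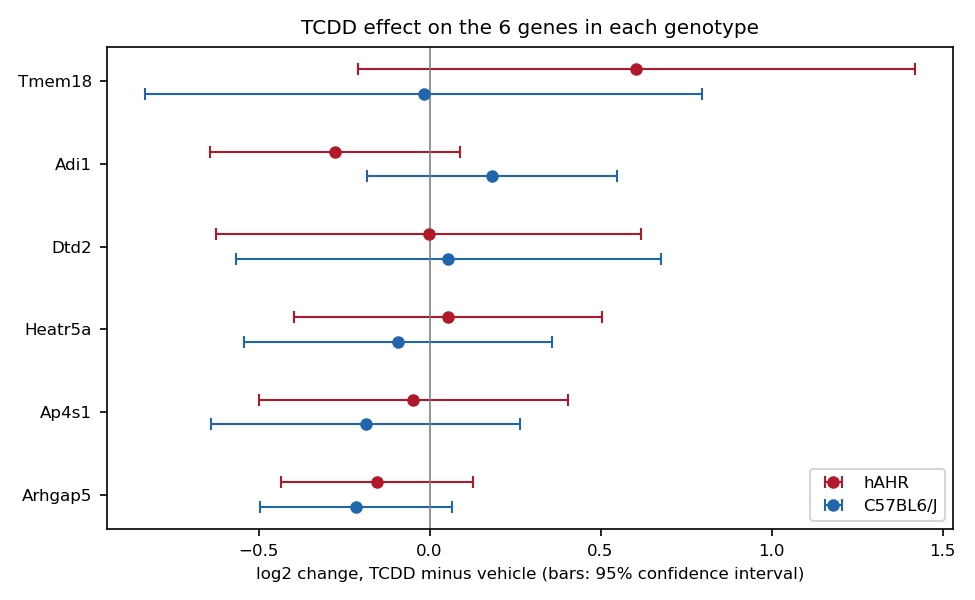
Log2 change of the 6 genes with TCDD against vehicle in hAHR and in C57BL6/J cells, with 95% confidence intervals as bars. Every interval includes 0, and the intervals of Tmem18 are the widest.

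Partners of the 6 gene products were listed to see how the rest of each complex or pathway was measured, and 29 of 33 listed genes had a value. None was called by limma in any genotype or TCDD comparison. An unadjusted p under 0.05 occurred once in the averaged genotype comparison, once for TCDD in C57BL6/J cells and in no other. Over all 18193 genes it occurred for 971 in the averaged genotype comparison and 761 for TCDD in C57BL6/J cells. The other AP-4 subunits and the AP-4 accessory protein tepsin, 4 of 4 measured, had a median genotype difference of -0.00. Ap4b1 showed -0.01 and Ap4e1 0.11. In methionine salvage and polyamine synthesis, 8 of 11 were measured, with a median of 0.00. Apip, the enzyme before the ENOPH1 step of salvage, showed -0.25 (limma adjusted p = 0.949) and Mtap, the pathway's first enzyme, 0.07.
Dtd1, the related deacylase, averaged 219 ± 45.4 in hAHR and 244.5 ± 52.4 in C57BL6/J arrays (SD, n = 6 each), for -0.15 (limma adjusted p = 0.973). The p190 RhoGAP partners, 8 of 9 measured, had a median of 0.00, with 0.10 for Arhgap35, which encodes the related p190-A. The HEATR5 and AP-1 group, 8 of 8 measured, had a median of 0.07, with 0.08 for Heatr5b and 0.21 for Aftph, the aftiphilin gene (limma adjusted p = 0.921). The median over all genes was 0.01. With TCDD, the medians of the 5 lists ran from -0.15 to 0.08 in hAHR and from -0.35 to 0.05 in C57BL6/J cells, where the lowest was Dtd1 alone.

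The genes whose log2 values followed each of the 6 most closely over the 12 arrays were mostly other genes with a genotype difference. As the arrays fall in 2 genotypes, r mainly describes that split and is given without a test. Eif4e2, a cap-binding protein gene, and Atg16l1, an autophagy gene, both on chromosome 1, were the closest to Tmem18 (r = 0.916 and 0.904). They were also among the 3 closest to Adi1 (0.944 and 0.955), where Dtd2 was the remaining one (0.945). Besides Adi1, Dtd2 was closest to Hhatl (0.919) and Gcdh (0.894). Heatr5a was closest to Igsf11 (0.890), Eif4e2 (0.881) and Fam241b (0.864), and Arhgap5 to Dgkd (0.901), Sgk2 (0.898) and Aamdc (0.887). Ap4s1, whose own arrays overlapped, was closest to Aldh1a1 (0.971), 2610524H06Rik (0.960) and Tsc22d1 (0.955), which all overlapped between the genotypes. Gcdh, Fam241b and Sgk2 overlapped as well. The averaged log2 genotype differences of Aldh1a1, 2610524H06Rik and Tsc22d1 were -0.75, -0.31 and -0.49. Outside chromosome 12, genes called in the averaged genotype comparison were Eif4e2 (-0.86, limma adjusted p = 0.00158), Atg16l1 (-0.72, 0.00525) and Cyp1a2, an AHR target, which was higher in hAHR arrays (1.95, 0.00122).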

How the data were processed

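The deposited intensities are linear and were made by the authors with PLIER in Affymetrix Expression Console 1.1, per the submitters' processing notes. Their trimmed mean (2% left out at each end) was 150 on 9 arrays and 500 on the 3 C57BL6/J TCDD arrays, a gap of 1.74 on the log2 scale, and the step that set these means is not named. Each array was therefore rescaled to 150 and log2 of the signal plus 16 was taken. Of 45101 probe sets, 64 were controls, 34945 had 1 symbol, 932 several and 9160 none in the platform annotation. A gene was represented by its brightest single-symbol set over the 12 arrays, its gene value, which gave 18193 genes, of which 18032 were placed through RefSeq. limma 3.58.1 in R 4.3.3 fitted 4 group means with an intensity trend and 8 residual degrees of freedom. Tests were two-sided with Benjamini-Hochberg adjustment over all genes, and a gene is called at an adjusted p of 0.05. Groups are apart where their arrays do not overlap.

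The genes, the lists and the rule for named genes (the 6 genes, Ahr, their chromosomal neighbours, their 3 closest genes by correlation, listed partners, and other chromosome 12 genes that were apart) were chosen with earlier results of these data known. Scfd1, G2e3 and Tcl1b3 were named after their values were seen. The fit was tested on simulated data. The labels give no scan or culture dates, so genotype and day cannot be told apart. Same-numbered TCDD and vehicle arrays deviated together in hAHR cells (r from 0.19 to 0.27 across genes, others at most -0.04), which comes from the values and not the design text. In C57BL6/J cells r ran from 0.05 to 0.51 for same-numbered arrays and from -0.46 to 0.28 for others. These deviations were taken from group means and cancel out within a group. A positive r for same-numbered arrays therefore makes the others negative on average, so the others are no separate evidence of pairing. Whether same-numbered arrays share a mouse is not settled. If they do, the 6 arrays of a genotype hold fewer than 6 mice, and the SDs and standard errors over them do not describe 6 independent mice. No 2 arrays were identical. The number of arrays limits the precision. The authors' SAM comparison was not repeated.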

Additional observations from a re-analysis of the deposited data

How the results depend on the processing

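All 6 genes stayed lower in hAHR arrays under every alternative run. Since this contrast chose the genes on these same arrays, their kept sign is not a test of the difference. The averaged log2 difference ranged from -2.52 to -1.78 for Tmem18, -2.01 to -1.74 for Adi1 and -1.79 to -0.50 for Dtd2. It ranged from -0.82 to -0.40 for Heatr5a, -0.55 to -0.32 for Arhgap5 and -0.54 to -0.35 for Ap4s1. No TCDD effect on the 6 genes, nor difference of effects, passed the threshold under any alternative (smallest limma adjusted p 0.529). Signs of values near 0 turned. Dtd2 in hAHR became 0.092 with an offset of 1, 0.012 with quantile normalization, 0.020 with a shared median and 0.085 as a mean over sets. Its C57BL6/J change became -0.059 with a shared median. Its difference became 0.028 with an offset of 1, 0.079 with a shared median and 0.042 as a mean over sets. As means over sets, Heatr5a in hAHR became -0.0047 and the Arhgap5 difference -0.13. With 1 array left out the ranges were, in hAHR, -0.38 to 0.23 for Dtd2, -0.067 to 0.25 for Heatr5a and -0.17 to 0.11 for Ap4s1. In C57BL6/J cells they were -0.059 to 0.022 for Tmem18, -0.071 to 0.14 for Dtd2 and -0.26 to 0.034 for Heatr5a. For the difference they were -0.44 to 0.17 for Dtd2, -0.017 to 0.30 for Ap4s1 and -0.016 to 0.15 for Arhgap5.

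Genes called over the whole array were 6 for the averaged genotype contrast (10 with every probe set), 2 under vehicle (4 with an offset of 50) and 1 under TCDD (2 with every probe set, 3 without both C57BL6/J replicate 2 arrays). For TCDD in hAHR they were 4 (2 with quantile normalization or no trend, 1 as means over sets). For TCDD in C57BL6/J they were 1 (0 with a shared median, no trend, the 6 arrays alone or without both replicate 2 arrays, 2 with every probe set), and for the difference 0 (1 without both replicate 2 arrays). With 1 array left out the counts ran from 5 to 7, 1 to 3, 1 to 2, 0 to 6, 0 to 1 and 0 to 1 in this order, and the count for TCDD in hAHR was 0 without hAHR vehicle replicate 1 or 3 or hAHR TCDD replicate 2, 1 without hAHR TCDD replicate 1 or 3, and 2 without hAHR vehicle replicate 2, C57BL6/J vehicle replicate 1 or 3 or C57BL6/J TCDD replicate 1. That for TCDD in C57BL6/J was 0 except without C57BL6/J vehicle replicate 1 or TCDD replicate 3. The vehicle count was 1 without hAHR vehicle replicate 2 or C57BL6/J vehicle replicate 2 or 3, the count under TCDD 2 without C57BL6/J TCDD replicate 2 or 3, and the difference 1 without C57BL6/J TCDD replicate 2. With the replicate block the counts were 5, 3, 1, 5, 1 and 0. The fit on the 6 arrays alone does not exist for the averaged contrast and the difference. The causes were not tested.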
